A study of Mus musculus with 10 samples.

Results

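Wide peaks of the aryl hydrocarbon receptor (AHR) that had no counterpart in AHR knockout (KO) organoids were described from the peak lists of a chromatin immunoprecipitation (ChIP-seq) experiment. The regions were chosen by width and by absence from the AHR KO list: a wild type (WT) peak on chromosomes 1 to 19, X or Y that was at least 500 bp wide and shared not even 1 bp with an AHR KO peak. This held for 4684 of the 123366 WT peaks on those chromosomes (3.797%), out of 123652 in the whole list, and they covered 8.97% of the bases in its peaks. They were 84.0% of the 5574 WT peaks of that width. The other 890 wide peaks (16.0%) overlapped an AHR KO peak, against 915 of 117792 narrower peaks (0.777%). Comparisons below set the wide peaks against the 116877 narrower WT peaks that were also absent from the AHR KO list.

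The cultures were mouse colon organoids, epithelial spheres grown from crypts and kept in WENR medium, which contains Wnt3a and holds them in a regenerative, stem-like state. All of them, WT and AHR KO, had been given 5 nM FICZ, a high-affinity AHR ligand, for 1 hour. There were 4 AHR ChIP libraries and 4 inputs from WT cultures, and 1 of each kind from AHR KO organoids. According to the study's methods, the AHR-deficient cultures came from Vil-Cre Ahr fl/fl mice, in which the villin promoter drives deletion of Ahr in the intestinal epithelium, and the controls from WT mice; their age is not given in the sources used here. The WT list stands for all 4 cultures together, so no region has a value per culture and no error between replicates can be given. The AHR KO list came from 1 library and held 1931 peaks. Absence from it means that no peak was called there, not that the AHR KO signal at that place was known to be lower.

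AHR is held in the cytoplasm until a ligand binds, then enters the nucleus and pairs with ARNT. The pair recognises a short DNA word with the core GCGTG, known as the xenobiotic response element, and induces detoxifying enzymes, of which the cytochrome P450 Cyp1a1 is the textbook case. A peak caller joins neighbouring enriched positions into a peak, so the width is the length over which the ChIP signal stayed above background. Much of the mouse genome consists of repeats, either short units in tandem such as (CA)n or copies of mobile elements, and reads from such copies are hard to place.

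The sequences below show the kinds of region that the wide peaks held. The first pair are promoters with little repeat sequence, the next 3 are among the highest-scoring wide peaks, and the last is from the highest-scoring wide peak whose longest tandem run was the 6-base unit AGAGGC. All are from GRCm38, plus strand, 5′ to 3′. In the first 5, capitals mark GCGTG or its reverse complement CACGC. In the last, they mark whole copies of CTGCCT, which is AGGCAG on the other strand.
Cyp1a1, chr9:57696565-57696804: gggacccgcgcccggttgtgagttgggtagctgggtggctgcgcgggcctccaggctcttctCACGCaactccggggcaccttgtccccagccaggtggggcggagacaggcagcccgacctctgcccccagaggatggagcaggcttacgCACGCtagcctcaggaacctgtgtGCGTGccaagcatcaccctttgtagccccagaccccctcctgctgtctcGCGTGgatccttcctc
Cdk19, chr10:40339476-40339595: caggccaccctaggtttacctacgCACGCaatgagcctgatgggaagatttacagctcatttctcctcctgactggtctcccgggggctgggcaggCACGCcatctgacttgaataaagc
near Ankrd9, chr12:111007902-111008061: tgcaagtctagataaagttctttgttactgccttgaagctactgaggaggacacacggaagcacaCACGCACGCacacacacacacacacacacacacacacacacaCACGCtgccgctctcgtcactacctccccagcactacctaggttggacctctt
near Nfkbia, chr12:55464844-55465003: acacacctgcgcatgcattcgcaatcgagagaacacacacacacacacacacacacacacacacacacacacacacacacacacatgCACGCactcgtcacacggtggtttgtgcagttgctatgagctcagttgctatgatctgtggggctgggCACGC
near Hoxb8, chr11:96278444-96278603: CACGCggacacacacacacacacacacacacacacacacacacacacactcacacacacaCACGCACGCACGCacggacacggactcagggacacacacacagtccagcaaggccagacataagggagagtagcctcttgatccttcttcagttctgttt
near Ccdc110, chr8:45931460-45931549: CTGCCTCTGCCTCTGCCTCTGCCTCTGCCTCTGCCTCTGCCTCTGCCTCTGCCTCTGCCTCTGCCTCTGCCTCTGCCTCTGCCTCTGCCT
The Cyp1a1 stretch held 4 of these cores in mixed sequence. The Ankrd9, Nfkbia and Hoxb8 stretches also held a long run of CA.

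The width of the wide peaks had a median of 584 bp (quartiles 534 and 671 bp) and reached 2581 bp, while the narrower peaks had a median of 223 bp. The score deposited with each peak has no column name and was read from its values as a fold enrichment, and since it was listed with the same peak call as the width, it is a description here. Its median was 6.31 in the wide peaks (quartiles 4.98 and 7.64, range 1.75 to 53.9) and 5.29 in the narrower ones (quartiles 4.49 and 5.98, range 1.78 to 60.4). The score did not rise steadily with width: the median was 5.54 at 200 to 249 bp, 5.04 at 300 to 399 bp, 5.98 at 500 to 599 bp and 7.31 at 1000 bp or more. Just inside the limit, the 367 peaks of 500 to 509 bp had a median score of 5.65 (quartiles 4.52 and 7.31). Just outside it, the 422 peaks of 490 to 499 bp had a median score of 5.65 as well (quartiles 4.64 and 6.98). Across the wide peaks, width and score had a rank correlation of 0.188 (n = 4684 peaks, all from the same call). Of the 1006 peaks absent from the AHR KO list with a score of at least 10, 237 were wide (23.6%).

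**Figure D1:**
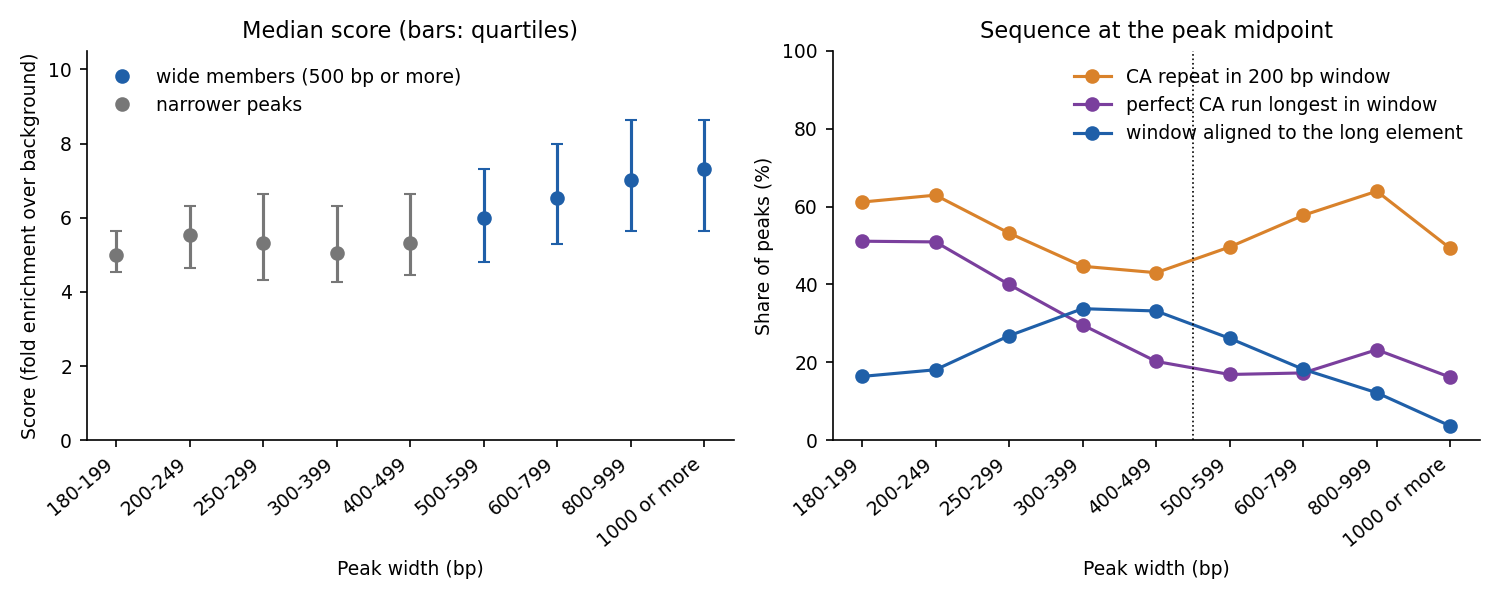
Score and sequence of WT peaks absent from the AHR KO list, by peak width in bp. Left: median score (read as fold enrichment) with quartiles, grey for the narrower peaks and blue for the wide ones, where the median goes from 5.98 at 500 to 599 bp to 7.31 at 1000 bp or more. Right: share of peaks (%) with a CA repeat, with a perfect CA run as the longest run, or with an alignment to the long element, all in the 200 bp around the midpoint; the dotted line is the 500 bp limit, and the element share is highest at 300 to 399 bp (33.8%).

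Repeat sequence filled most of the wide peaks. Repeats are written in lower case (soft-masked) in the genome sequence. In the 200 bp around the midpoint, at least 50% of the bases were soft-masked in 4415 of 4684 wide peaks (94.3%) and in 85.6% of the narrower ones, a difference of 8.69 percentage points (95% interval 7.96 to 9.36). Of 264761 windows of the same length laid every 10 kb along the chromosomes, 30.6% passed this limit. The direction depended on the definition: with a limit of 25% the wide peaks were 1.37 points lower (98.2% against 99.6%), and in 100 bp windows 1.88 points lower (93.3% against 95.2%), while with a limit of 75% they were 26.2 points higher (87.1% against 60.9%). Nearly every peak of both sets held some masked sequence, and the sets differed in how much of the window it filled. Intervals on shares cover counting error only, since peaks of a single list are not replicates.

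Sorting the wide peaks by sequence gave 4 classes. A CA repeat, at least 3 copies of CACACA or TGTGTG anywhere in the peak, was the only feature in 2902 wide peaks (62.0%). An alignment to a long repeat element, described below, was the only feature in 941 (20.1%). Both were found in 145 (3.10%) and neither in 696 (14.9%). The median score was 7.18 with a CA repeat alone, 4.40 with the element alone, 5.55 with both and 5.67 with neither. The quartiles of the first class (5.98 and 8.48) and the second (3.89 and 5.03) did not overlap. Score followed the density of CACACA and TGTGTG, with a rank correlation of 0.649 across the 4684 wide peaks, all from the same call. The class with the element alone lay farther from genes, with a median of 88428 bp to the nearest protein-coding start, against 29974 bp for CA repeats alone.

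**Figure D2:**
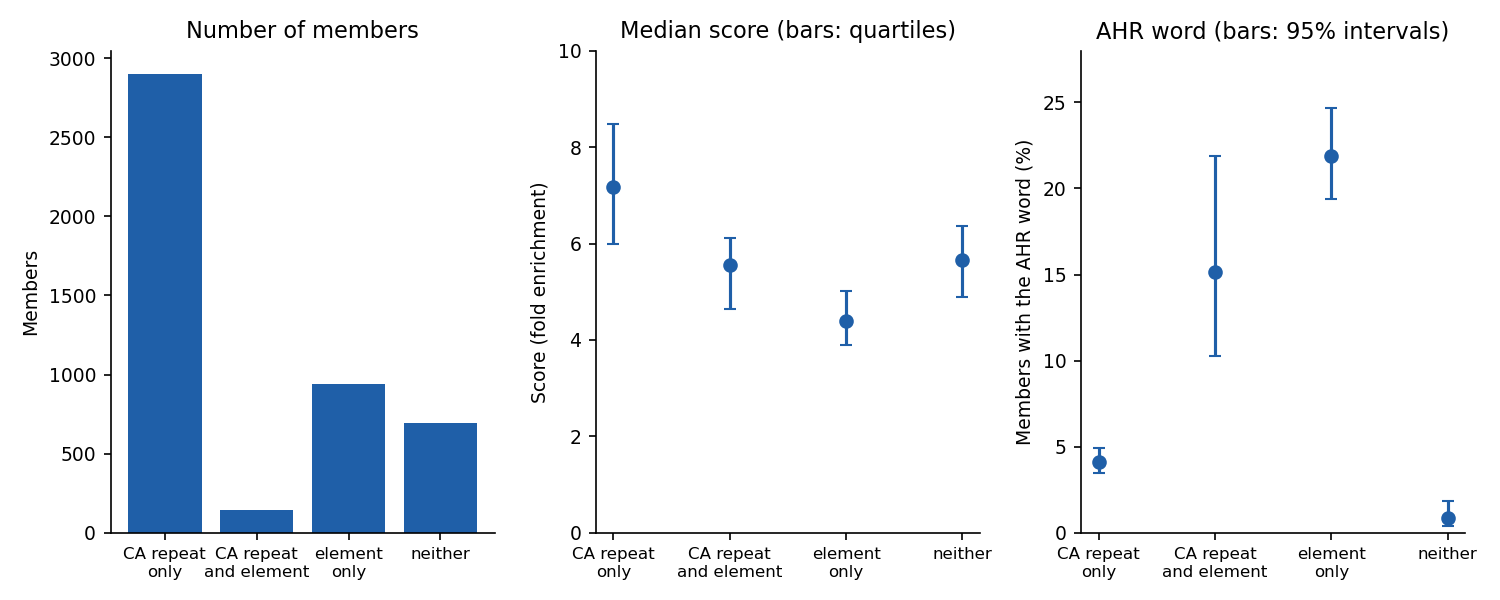
The 4684 wide peaks by sequence class. Left: number of peaks. Middle: median score with quartiles, highest for CA repeats alone (7.18) and lowest for the element alone (4.40). Right: share of peaks (%) with the AHR word TNGCGTG anywhere in the peak, with 95% Wilson intervals, at 21.9% for the element alone and 4.14% for CA repeats alone.

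CA repeats were common at the midpoint of both sets, but the longest perfect run of CA lay off centre in most wide peaks that had it. In the 200 bp window, 53.5% of wide peaks and 57.0% of narrower peaks held a CA repeat (difference -3.57 points, interval -5.03 to -2.12). With a width limit of 600 bp the sign turned, to 1.35 points (interval -0.798 to 3.47), while at 400 bp the difference was -10.6 points (interval -11.6 to -9.67) and within score deciles -15.7 points (interval -16.9 to -14.5). The longest perfect tandem run in the window was a CA run of at least 20 bases in 819 wide peaks (17.5%) and in 44.4% of the narrower peaks, a difference of -26.9 points (interval -28.0 to -25.8). Over the whole peak the gap was small, with 44.0% of wide peaks and 46.0% of narrower peaks. Among the 2060 wide peaks whose longest run was CA, its centre lay a median of 186 bp from the midpoint (quartiles 141 and 237 bp). In the narrower peaks that distance was 23.0 bp (quartiles 10.0 and 45.0 bp). Relative to width, the run was more than 50% of the way from the midpoint to the edge in 74.8% of these wide peaks (interval 72.8 to 76.6%) and in 14.1% of the narrower ones (13.8 to 14.4%). More than 1 such run was present in 1219 of the 2060 wide peaks (59.2%), and 859 (41.7%) had a run over 100 bp from the midpoint on both sides. The runs themselves were of similar length, with medians of 38.0 bp in wide and 42.0 bp in narrower peaks.

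**Figure D3:**
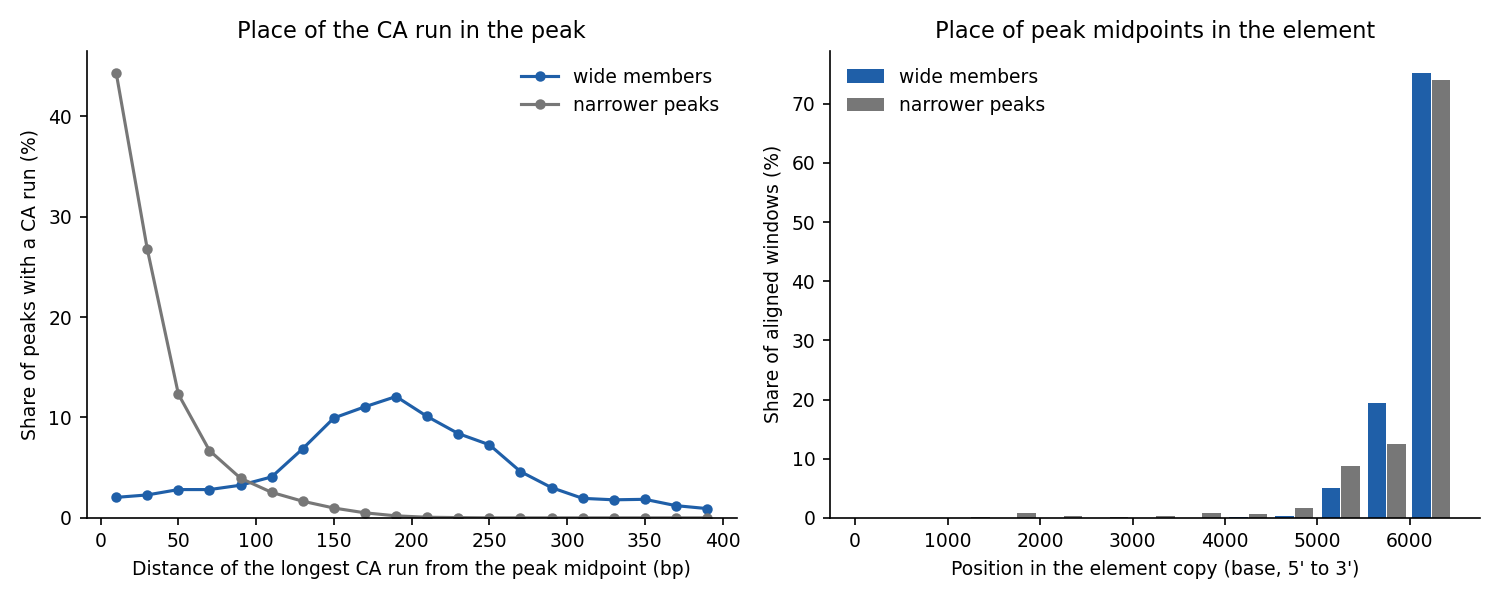
Place of repeats in WT peaks absent from the AHR KO list, blue for wide and grey for narrower peaks. Left: distance in bp of the longest perfect CA run from the peak midpoint, as a share (%) of peaks whose longest run is CA, in steps of 20 bp up to 400 bp; 44.3% of narrower and 2.04% of wide peaks fall in the first step. Right: place of the aligned part of the 200 bp window in the 6461 bp element copy, as a share (%) of aligned windows; 75.2% of wide and 74.0% of narrower windows lie from base 6001 onward.

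The second large class shared a long interspersed repeat. Of the wide peaks, 912 had neither a CA repeat nor a tandem run, and 788 of these were similar in sequence to the peak that was used to pick a reference copy. That copy was a soft-masked stretch of 6461 bp at chr15:20531340-20537800 on the minus strand. It held a pair of stretches free of stop codons, 393 codons at bases 704 to 1882 and 1108 codons at bases 1869 to 5192. A shorter followed by a longer reading frame is the layout of LINE-1 retrotransposons, but no repeat annotation was used here, so the element is not named. At least 100 bases of the 200 bp window aligned to it, at 80% identity or more, in 1020 wide peaks (21.8%, interval 20.6 to 23.0%) and in 22.1% of narrower peaks, a difference of -0.279 points (interval -1.46 to 0.949). Of the windows laid along the genome, 9.25% aligned (interval 9.14 to 9.36%). Peaks that also occurred in the AHR KO organoids seldom held it: 4 of the 890 wide peaks that overlapped an AHR KO peak (0.449%, interval 0.175 to 1.15%), and 44 of 1873 peaks of the AHR KO list (2.35%). Of those wide peaks, 29 had a score under 5, and 1 of the 29 held it (3.45%, interval 0.611 to 17.2%).

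The element was concentrated at low scores. It was aligned in 727 of 1197 wide peaks with a score under 5 (60.7%) and in 10 of 960 with a score of 8 or more (1.04%). The comparison with narrower peaks turned with score and width. Within deciles of score the wide peaks were 7.11 points higher (interval 6.14 to 8.07). With a width limit of 400 bp they were 7.19 points higher (28.6% against 21.4%, interval 6.34 to 8.06). At a limit of 600 bp the difference was -5.85 (interval -7.39 to -4.19). Peak midpoints gathered at the 3′ end of the element. Of the aligned windows, 975 of 1020 in wide peaks lay in its last 1000 bases (95.6%, interval 94.2 to 96.7%), against 88.0% in narrower peaks (87.6 to 88.4%) and 32.2% of the aligned windows along the genome (31.6 to 32.8%). Over the whole peak, 1086 wide peaks aligned, with a median of 527 bases at 95.2% identity. The 30 bases shown next occurred unchanged in 532 of these 1086 wide peaks and lie at bases 6078 to 6107 of the element.
shared 30 bases: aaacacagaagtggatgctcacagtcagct

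Most wide peaks with the longer AHR word were aligned to the element, while most with its core held a CA repeat. TNGCGTG, in which N is any base, is a longer form of the AHR and ARNT site that contains the core GCGTG, and it was counted on both strands. It was present somewhere in 354 wide peaks (7.56%), and 228 of these (64.4%, interval 59.3 to 69.2%) were aligned to the element. It was found in 21.9% of peaks with the element alone (interval 19.4 to 24.7%), in 4.14% with a CA repeat alone (3.47 to 4.92%) and in 0.862% with neither (0.396 to 1.87%). The core GCGTG was present in 1727 wide peaks, of which 1299 had a CA repeat alone (44.8% of that class, 2.27 cores per kb) and 314 the element alone (33.4%, 0.609 per kb). The most common form, shown here with the word in capitals and 10 bases on each side, occurred letter for letter in 119 wide peaks.
AHR word in the element: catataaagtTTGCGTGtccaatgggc
These 27 bases correspond to bases 6284 to 6310 of the reference copy, on its other strand and with 2 differing bases. They were found in 2.54% of all wide peaks (interval 2.13 to 3.03%) and in 1.39% of narrower peaks (1.32 to 1.46%). Per length the order was the other way, with 40.2 such peaks per Mb of wide peaks and 55.9 per Mb of narrower ones. Of the 1805 WT peaks that overlapped an AHR KO peak, 2 held them.

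In windows of equal length, AHR words were not more frequent in wide peaks. TNGCGTG was present in the 200 bp window of 91 wide peaks (1.94%) and 2.90% of narrower peaks, a difference of -0.959 points (interval -1.33 to -0.513), and in 1.32% of windows along the genome. Over whole peaks there were 0.127 such words per kb in wide peaks and 0.152 in narrower ones. The difference came close to 0 in windows not aligned to the element (1.20% against 1.37%, difference -0.166, interval -0.481 to 0.248) and in windows under 50% masked (2.23% against 2.37%, difference -0.140, interval -1.37 to 2.42). In windows without a CA repeat it was wider than in all windows (2.48% against 4.55%, difference -2.07, interval -2.67 to -1.31). In aligned windows the word was in 4.61% of wide and 8.33% of narrower peaks (difference -3.72, interval -4.90 to -2.22). Over all windows but with a width limit of 400 bp, the TNGCGTG difference was -0.125 (2.75% against 2.88%, interval -0.426 to 0.205). The core GCGTG was in 14.1% of wide and 17.8% of narrower windows (difference -3.70, interval -4.69 to -2.65), against 6.78% along the genome. Over whole peaks the order was the other way for the core, with 1.59 per kb in wide and 1.45 in narrower peaks. Over peaks of unequal length, 36.9% of wide and 20.5% of narrower peaks held at least 1 core. In the wide peaks, 36.1% of the 4693 cores had TGTG directly before or after them, the letters of a CA repeat on the other strand, and 28.4% of the 41856 cores in narrower peaks did.

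Over all 200 bp windows, sites of other factors were rarer in wide peaks than along the genome. At least 50% of the bases were masked in 94.3% of the wide windows and in 30.6% of those along the genome. TGACTCA, the site of AP-1, the Fos and Jun dimer, was in 32 wide windows (0.683%), 1.32% of narrower windows (difference -0.633 points, interval -0.842 to -0.346) and 3.12% along the genome. GGAATG, a site of the TEAD factors that work with Yap1, was in 4.01% of wide and 7.44% of narrower windows (difference -3.43, interval -3.97 to -2.81) and in 10.8% along the genome. In 100 bp windows the GGAATG difference was -0.770 (2.26% against 3.03%, interval -1.17 to -0.294). Against narrower peaks both directions turned in windows under 50% masked, of which 269 were in wide peaks. TGACTCA was then in 5.20% of wide and 3.16% of narrower windows (difference 2.05, interval -0.0518 to 5.40). GGAATG was in 13.4% and 8.66% (difference 4.72, interval 1.14 to 9.33). These wide shares were also above those given along the genome, which included masked windows. For TGACTCA the sign also turned in 100 bp windows (0.406% against 0.392%). In 200 bp windows without a CA repeat its difference was -0.141 (0.505% against 0.645%, interval -0.375 to 0.262). The E-box CACGTG was in 1.45% of wide and 2.30% of narrower windows, and the GC box GGGCGG in 0.918% and 1.32%. Windows with at least 10 CpG made up 1.20% of wide and 0.986% of narrower peaks (difference 0.210, interval -0.0699 to 0.568). Within score deciles that difference was -0.659, and at a limit of 5 CpG it was -2.50, so no direction is given for it.

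**Figure D4:**
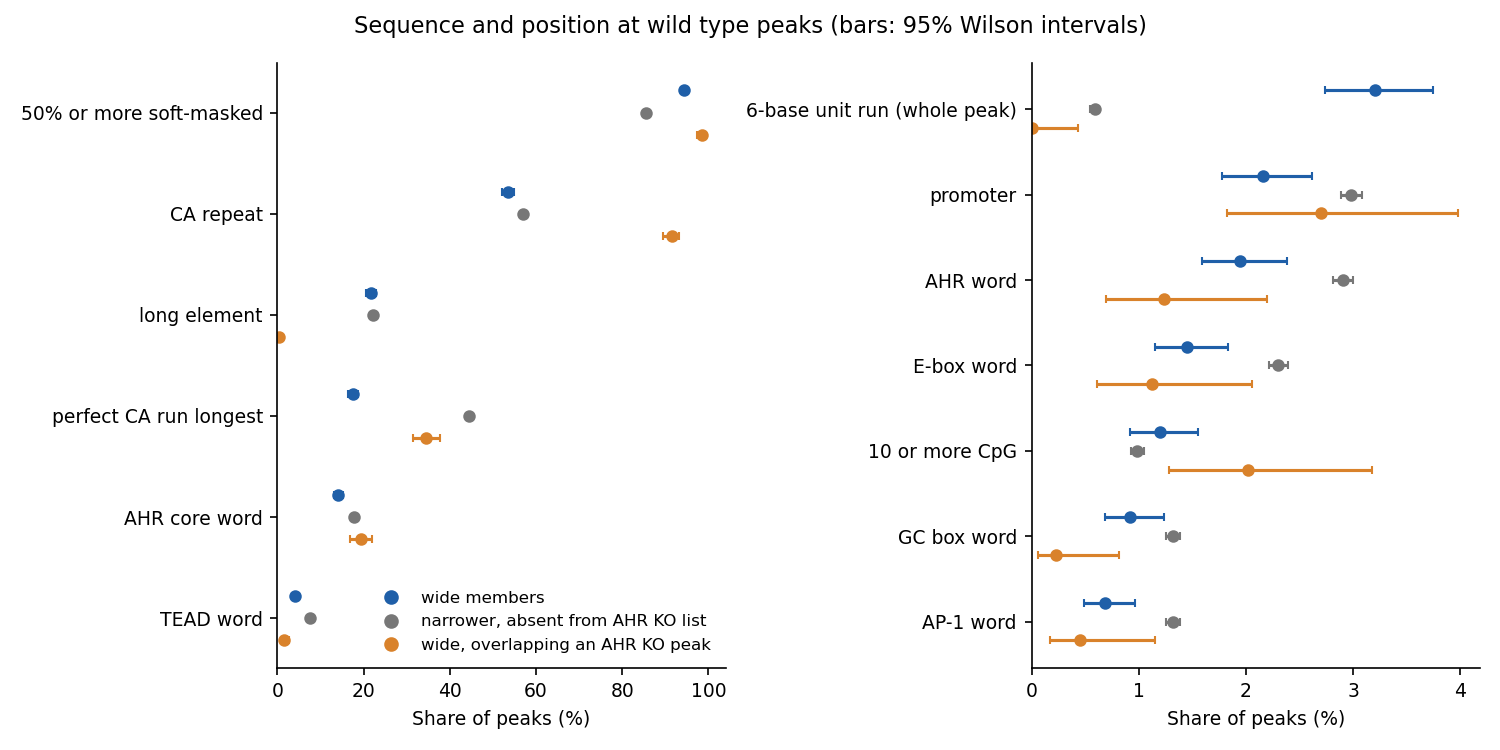
Share of peaks (%) with each feature, with 95% Wilson intervals, in wide members (blue), narrower peaks absent from the AHR KO list (grey) and wide peaks that overlap an AHR KO peak (orange). Features are counted in the 200 bp around the midpoint except the run of a 6-base unit (whole peak) and the promoter (midpoint). CA repeats reach 91.6% and the long element 0.449% in the orange set, against 53.5% and 21.8% in the wide members.

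Runs of a 6-base unit were more often the longest run in wide than in narrower peaks. The unit AGAGGC, counted in any phase and on both strands, was the longest run in 150 wide peaks (3.20%) and in 0.587% of narrower peaks, a difference of 2.62 points (interval 2.15 to 3.16) that was between 1.57 and 3.54 points under the 5 alternatives tried. None of the 890 wide peaks that overlapped an AHR KO peak had it, which allows a share of up to 0.337% if 3 counts are taken as the limit of a count of 0 (Wilson upper bound 0.430%). The runs had a median length of 108 bp in wide and 132 bp in narrower peaks, and reached 1074 bp and 468 bp, and the median score of these 150 peaks was 6.16 (quartiles 5.59 and 7.13). Of them, 126 had neither a CA repeat nor the element, which made AGAGGC the most common run in that class (18.1% of 696), ahead of AAG (13.8%) and AAAG (13.4%). The highest score, 14.4, belonged to the 572 bp peak near Ccdc110 whose run is printed above, a peak chosen for its run after its values were seen. Lgr5, the R-spondin receptor that marks intestinal stem cells, had its wide peak in this group, at chr10:115572886-115573771, with a 126 bp run and a score of 9.65. The same place is inside A930009A15Rik, whose start is nearer (3343 bp, against 14451 bp for Lgr5).

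Little repeat sequence was the exception. Only 16 wide peaks had under 25% of the whole peak soft-masked, and 13 of the 16 still held a CA repeat. Of the others, the strongest pair were those of Cyp1a1 and Cdk19. Cyp1a1, which encodes the cytochrome P450 that breaks down FICZ, had its wide peak at chr9:57696413-57696924. The midpoint was 944 bp upstream of the nearest annotated transcript start of Cyp1a1 and 8741 bp downstream of the annotated start of the whole gene. That peak was 512 bp wide, 8.40% masked and scored 17.97. It held 4 copies of TNGCGTG, 5 cores and 26 CpG, with no perfect tandem run of 20 bases. Cdk19, a kinase of the Mediator complex, had a 509 bp peak 136 bp upstream of its start, with 2 copies of TNGCGTG and a score of 11.0. These were 2 of the 14 wide peaks with more than 1 TNGCGTG. The 5 with at least 3 were near Nudt7 (5 copies, score 4.70), Cyp1a1 (4), Slc16a9 (4, score 5.89), Tnc (3, score 11.1) and R3hdm2 (3, score 7.50), and all but Cyp1a1 held a CA repeat and were over 79% masked; these others were picked out after their values had been seen.

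The highest scores belonged to peaks with a CA repeat but less masked sequence than most. The top wide peak, at chr12:111007768-111008313 in an intron of the long non-coding RNA 6030440G07Rik and 29001 bp upstream of Ankrd9, scored 53.9 and was 15.4% masked, with a 36 bp CA run, 3 cores and no TNGCGTG. Next came a peak 26956 bp downstream of the start of Nfkbia, an inhibitor of NF-kB, with a score of 35.9, 1 TNGCGTG and a 52 bp CA run. Gsdme, a pore-forming gasdermin, had an intronic peak 6479 bp from its start with a score of 33.6 and 1 TNGCGTG. The peak 3493 bp upstream of Hoxb8, a homeobox factor, scored 32.2 and held 1 TNGCGTG and 5 cores. A peak 4322 bp upstream of Lrig3 scored 31.6, and those near Arrdc1, Pttg1 (the securin gene), Iqgap1, Map3k21 and Palld scored between 21.6 and 29.0. All 10 held a CA repeat and at least 1 core, and 3 of the 10 held TNGCGTG. Their masked share ranged from 15.4 to 67.8%, below the median of 89.5% over all wide peaks. With a score of at least 10, 54.4% of wide peaks held a core and 7.17% TNGCGTG (interval 4.53 to 11.2%). Of the other wide peaks, 35.9% held a core and 7.58% TNGCGTG (6.84 to 8.39%). In narrower peaks TNGCGTG was in 6.37% at a score of at least 10 (4.85 to 8.32%) and in 3.685% below it (3.579 to 3.795%). Among wide peaks, the element was aligned in 60.7% with a score under 5 and in 1.04% at 8 or more. TNGCGTG was in 21.9% of wide peaks with the element alone. The part of the element in the wide shares by score was not tested.

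The widest peaks were not the strongest. The widest, 2581 bp at chrY:141597-144177, scored 5.12 and lay 654518 bp from the nearest protein-coding start, that of Zfy1, and a second peak on chromosome Y was 2434 bp wide with a score of 5.41. Both had a longest run of the unit AGAT and a GC content of 27.4 and 27.7%. The 2546 bp peak upstream of Epop, a chromatin-associated protein, held 146 copies of CACACA or TGTGTG and scored 6.74. The 2483 bp peak in an intron of Pfkfb4, a glycolytic regulator, was fully masked, with an AGAGGC run and a score of 7.97. The scores of the 10 widest peaks lay between 3.92 and 8.97, none held TNGCGTG, and 4 of the 10 held a CA repeat.

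Most wide peaks lay away from promoters. The midpoint was in an intron in 41.8% and between genes in 55.6%, close to the 41.1% and 54.9% of narrower peaks (differences 0.651, interval -0.782 to 2.097, and 0.692, interval -0.763 to 2.14). It was in a promoter, from 1 kb upstream to 100 bp downstream of any annotated start, in 101 wide peaks (2.16%) and in 2.98% of narrower peaks (difference -0.826 points, interval -1.22 to -0.359). In windows under 50% masked the sign turned, with 5.95% of wide and 4.75% of narrower peaks (difference 1.20, interval -1.08 to 4.71). The median distance to a protein-coding start was 37513 bp for wide and 46248 bp for narrower peaks, and more wide peaks fell between 10 and 50 kb (34.7% against 29.6%). At protein-coding starts there were 48 promoter peaks, for 48 genes, of which 39 held a CA repeat. Of all wide peaks, 62.0% held a CA repeat alone and 3.10% a CA repeat with the element. TNGCGTG was in 4 of the 48 (8.33%), close to its share of all wide peaks (7.56%). These 4 were the peaks of Cyp1a1, Cdk19, Nadk, an NAD kinase (score 9.30), and Crtc2, a CREB coactivator, the last pair named after their values had been seen.

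Genes of the AHR battery, of Wnt and Yap signalling and of colonic differentiation were looked up by name. Of 21938 protein-coding genes, 2132 (9.72%) had a wide peak in the gene or within 10 kb, while 77.0% had a narrower one. In the AHR battery it was 2 of 14 genes (14.3%, interval 4.01 to 39.9%), namely Cyp1a1 and Nqo1, the quinone reductase, whose intronic peak scored 8.79 and was fully masked with a CA repeat. Among active targets shown by the study it was 2 of 17 (11.8%, interval 3.29 to 34.3%), Cyp1a1 again and the coactivator gene Ppargc1b (score 6.31); this list was chosen on these samples and is not independent. Both intervals included the 9.72% of all genes.

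Wnt genes had 3 of 22 with a wide peak (13.6%, interval 4.75 to 33.3%). Besides Lgr5, these were the Wnt co-receptor Lrp5, with intronic and exonic CA-repeat peaks that scored 9.87 and 9.14, and the tumour suppressor Apc, with an intronic CA-repeat peak that scored 4.98. In the Yap/Tead and fetal-like list it was 3 of 22 (13.6%): Tead4 (score 10.6, CA repeat), the Tead cofactor Vgll4 (5.76) and, 5501 bp from its start, the secreted Yap target Ccn2 (3.90). Colonic differentiation genes had 6 of 26 (23.1%, interval 11.0 to 42.1%) in a list chosen with earlier results known, against 9.72% of all genes. The list was also above all genes for narrower peaks (88.5% against 77.0%). The highest was 5139 bp upstream of the carbonic anhydrase gene Car2 (score 15.1, 2 cores), followed by peaks near Fabp2, the fatty acid binding protein of enterocytes (11.2), and in Hnf4a, an enterocyte transcription factor (8.89). Those at Krt20, a keratin of mature colonocytes, and at Klf4, a differentiation factor, scored 6.08 and 5.52. None of the 12 AP-1 genes had a wide peak, with a Wilson upper bound of 24.3%, while all 12 had a narrower one, against 77.0% of all genes. Of the peaks of these lists, Cyp1a1's was the only one with TNGCGTG.

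Olfactory and vomeronasal receptor genes, which act in sensory neurons of the nose, had a wide peak in 47 of 1466 cases (3.21%, interval 2.42 to 4.24%), against 9.72% of all protein-coding genes. For narrower peaks the list was also below all genes (65.6% against 77.0%). Their median length was 6351 bp against 17425 bp for all protein-coding genes, and the part of gene length in this share was not tested. The genes with the most wide peaks in the body were long: Gm20388, an annotated locus of 4434882 bp, had 29, the growth factor receptor gene Fgfr2 had 9 over 2960900 bp as annotated, Rbms3 7 and the cadherin gene Cdh12 6. Ccser1, Disc1, Dlg2, Rasgef1b, Tshz2 and Zfhx3 had 5 each. Of the 5 in Ccser1 all held the element and none a CA repeat, with scores of 4.196 to 5.65, while the 5 in Disc1 all held a CA repeat and none the element, with scores of 5.65 to 7.23. Disc1 had the densest set of these 10 genes, at 2.41 per 100 kb.

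Wide peaks were sparse on the sex chromosomes. There were 1.93 per Mb of sequenced bases over the autosomes, from 1.61 on chromosome 1 to 2.33 on chromosome 8, and 0.275 per Mb on X (45 peaks) and 0.284 on Y (25 peaks). Narrower peaks were sparse there too, at 47.8 per Mb on autosomes, 10.4 on X and 7.31 on Y. On X the shortfall differed between the sequence classes. CA repeats were in 4 of the 45 wide peaks on X (8.89%, interval 3.51 to 20.7%) and in 65.9% of the autosomal ones (64.5 to 67.3%), that is 0.0245 against 1.27 per Mb. The element was in 32 of the 45 (71.1%, interval 56.6 to 82.3%) and in 22.7% on autosomes (21.5 to 23.9%), or 0.196 against 0.437 per Mb. Along the genome, windows with a CA repeat were 2.09% on X and 3.35% on autosomes, and windows with the element 18.03% and 8.49%. Narrower peaks showed the same order, with a CA repeat in 15.2% on X and 57.8% on autosomes. On Y, where there were 25 wide peaks, a CA repeat was in 2 (8.00%, interval 2.22 to 24.97%) and the element in 8 (32.0%, interval 17.2 to 51.6%, which includes the autosomal share), and 37.9% of the narrower peaks there had a CA repeat.

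**Figure D5:**
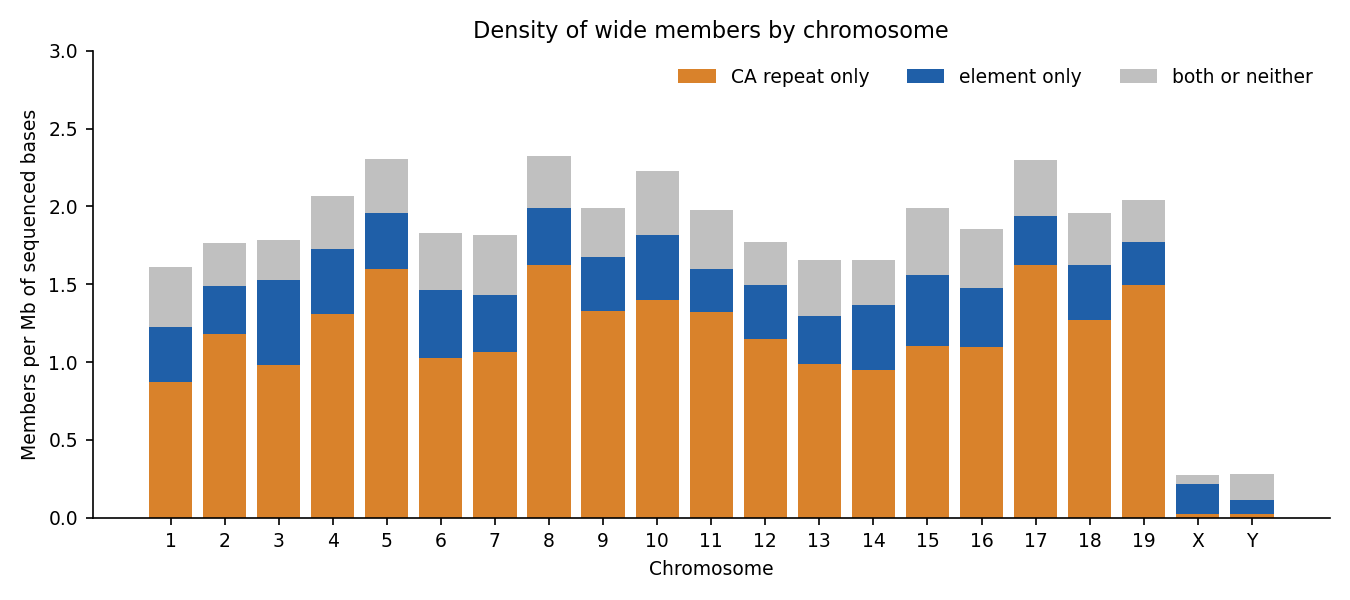
Wide peaks per Mb of sequenced bases on each chromosome, split into peaks with a CA repeat only (orange), with the long element only (blue) and with both or neither (grey). Autosomes lie between 1.61 and 2.33 per Mb, and X and Y at 0.275 and 0.284.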

How the data were processed

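ChIP-seq of AHR was analysed from 2 peak lists, 1 for the 4 WT cultures together and 1 for the AHR KO. The authors aligned single-end reads to mm10 with BWA 0.7.15 (at most 2 mismatches), marked duplicates with Picard 2.1.1 and called peaks with MACS2 2.1.1 in standard settings against input; HOMER 4.8 is also in their processing notes. The score deposited by the authors was read from its values as a fold enrichment, a ratio of ChIP to expected background. Read depth per library was not analysed here, and the handling of reads with several possible places is not given in the sources used here. Starts were taken as counted from 0, so 1 was added to each printed start.

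Overlap was counted from 1 bp. Sequence and soft-masking came from GRCm38, the sequence of mm10, and genes from GENCODE M21; 286 WT peaks on other sequences were left out. Words of each motif were searched on both strands of 200 bp windows, which let peaks of different width be compared. Tandem runs were perfect, with units of 1 to 6 bases and at least 20 bases. Alignments used BLAST 2.17.0. Shares have 95% Wilson intervals and differences 95% Newcombe intervals, except differences within score deciles. Those were averaged over deciles, weighted by the wide peaks in each, with 95% intervals from a normal approximation. No test over samples was possible, because the WT list pools its cultures and the AHR KO has 1 ChIP library. Alternatives changed the width limit, the distance to AHR KO peaks, the window, each feature's definition and the score composition; they are given in the closing section. All intervals were computed in Python 3.11.15. Simulated data were used to check the coverage of the Newcombe interval, at a single pair of shares. Coverage of the other intervals was not checked.

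Peaks named were taken from the 10 highest-scoring, the 10 widest, the 10 highest-scoring with under 25% masked, those in or within 10 kb of listed genes, and those of the genes with the most wide peaks, and those not named are given by their range or count. The peak near Ccdc110 was named after its values were seen, as the highest-scoring of a group with similar sequence. The width rule, the gene lists and these rules were chosen with earlier results of these data known, and the element, the tandem units and the place of CA runs were examined after the sequences had been seen. Of the listed symbols, Ctgf and Cyr61 were matched under their newer names, Ccn2 and Ccn1. The values of 1 listed gene are not reported here.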

Additional observations from a re-analysis of the deposited data

How the results depend on the processing

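Of the 77 alternatives run, 53 kept the direction and the side of the threshold, taken as whether the interval of the difference (in percentage points, wide minus narrower) included 0, or stayed within 1.5 times for counts. Requiring no AHR KO peak within 1 kb changed none of them. A width limit of 400 bp brought the TNGCGTG difference to -0.125, the CpG-rich difference to 0.274 (interval above 0) and the element difference to 7.19, while 600 bp gave a CA repeat difference of 1.35 and an element difference of -5.85. Within score deciles the CpG-rich difference was -0.659 and the element difference 7.11. In 100 bp windows the masked share difference was -1.88 and that of TGACTCA 0.0138. The masked share at 25% gave -1.37, CpG-rich windows at 5 CpG -2.50, and the element at 90% identity 0.536. In windows under 50% masked the differences were -0.140 for TNGCGTG, 2.05 for TGACTCA, 4.72 for GGAATG, 3.13 for CpG-rich windows and 1.20 for promoters. In windows without a CA repeat they were -0.141 for TGACTCA, 0.361 for CpG-rich windows and -0.399 for promoters. In windows not aligned to the element TNGCGTG gave -0.166. The cause of these changes was not tested. The count of genes with a wide peak, 2132, became 4419 at 400 bp, 1054 at 600 bp and 5154 within 50 kb. The difference in median score, 1.03, was 0.368 at 400 bp and 1.34 at 600 bp. Alternatives on the element, the AGAGGC run and the central CA run were added after the data had been seen. No paired analysis was possible because the WT list pools the cultures and no fit over samples was made. For the same reason no culture could be left out in turn. The AHR KO list rests on 1 library, so absence from it is limited by an unknown depth.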

Other observations

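Scores of the peak list fell on multiples of a fixed step for some sequence classes more than for others. Whole multiples of a step of 0.332, within 0.001 of a step, held 38.9% of the scores of wide peaks absent from the AHR KO list and 52.6% of the narrower ones. The share was 51.0% for wide peaks with a CA repeat alone, 33.1% with a CA repeat and the element, 28.02% with neither and 10.8% with the element alone.

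Wide peaks had another WT peak close by slightly more often than narrower ones. A neighbour lay within 1 kb in 14.6% of wide peaks (interval 13.6 to 15.6%) and in 11.9% of narrower peaks (11.7 to 12.1%), and the median gap to the nearest peak was 5587 bp and 6407 bp. The lowest score among the wide peaks, 1.75, belonged to a peak of 780 bp at chr17:39844732-39845511 in the non-coding locus Gm26917, with 90 CpG and only 4.74% masked, picked out after its values had been seen.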
